A study of Mus musculus with 14 samples.

Results

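The genes described here encode synaptic vesicle proteins and the machinery that releases transmitter from vesicles: synaptotagmins (Syt), synapsins (Syn), the SV2 proteins, synaptophysin (Syp) and synaptoporin (Synpr), SNAREs such as Vamp1, Vamp2, Snap25 and Stx1a, complexins (Cplx), RIMs (Rims), the Unc13 proteins, Rab3 and its regulators, synaptojanin 1 (Synj1), and the vesicular transporters for glutamate (Slc17a6, Slc17a7, Slc17a8) and for GABA (Slc32a1). They were matched by gene symbol, with earlier results of these data known when the set was chosen, and 66 of 21938 protein-coding mouse genes matched. The letters "Rab3" also took in 12 genes of other Rab proteins (Rab30 to Rab39b), which left 54 genes with a role in vesicles or release. The 12 are kept in every count and named apart where they carry a result.

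Trimethylation of histone H3 at lysine 27 (H3K27me3) was profiled by ChIP-seq, in which chromatin fragments that carry the mark are pulled down with an antibody and sequenced, in cerebellum of mice aged 7 days (P7), 14 days (P14) and 60 days (P60) after birth, with 3 libraries per stage. The study asked how this mark is redistributed while the cerebellum matures after birth. All 9 libraries came from C57BL/6NCrl mice of both sexes with no genetic change or treatment. A P7 library pooled the cerebella of 3 mice and a P14 library those of 2 mice, whereas a P60 library came from 1 mouse, so pool size changed with stage. Another 5 libraries, from Kdm6b-cKO and Kdm6b-WT mice, were not used here.

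H3K27me3 is laid down by Polycomb repressive complex 2 and is found at promoters of genes that are held silent or ready for later use. At a presynaptic terminal, vesicles are filled by vesicular transporters, tethered and primed at the active zone by RIM and Unc13 proteins, held close to the membrane by SNAREs and complexins, and fused when calcium binds to synaptotagmin. In the cerebellum, granule neurons release glutamate from parallel fibers, and Purkinje cells and interneurons release GABA.

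The files hold peaks and no read counts, so the measure was promoter coverage: the percent of a window of 3 kb on each side of an annotated transcription start site (TSS) that lay under H3K27me3 peaks. Of a gene's start sites, the one with the highest coverage in that library was used. A gene was called marked when 1 bp or more of a window was covered. The lists held 6905 to 15600 peaks and covered 1.48 to 15.2 Mb of the genome. Peaks were narrowest in P60 replicates 1 and 2, with median widths of 134 and 149 bp, against 410 bp in P60 replicate 3 and 269 to 751 bp in the P7 and P14 libraries. Read depth is unknown, so low coverage and a shallow library cannot be told apart. Mean coverage at marker genes was lower at P60 than at P7 in all 7 cell classes listed (granule neurons, Purkinje cells, inhibitory interneurons, astrocytes, oligodendrocyte lineage, microglia, and endothelial and mural cells). Summed over 9 granule neuron markers, of which 5 were marked in any library (Zic1, Zic2, Etv1 and Gabra6 were at 0 in all), it was 51.8 to 89.3 points at P7, 14.2 to 50.7 points at P14 and 0 to 3.6 points at P60. Over 7 inhibitory interneuron markers, of which Lhx1 was at 0 in all libraries, it was 68.2 to 153.6, 24.0 to 116.1 and 0 to 6.4 points at the same stages. In whole tissue, fewer cells that carry the mark and less mark per cell cannot be told apart, and the part of cell composition in the results was not tested.

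RefSeq (GRCm38.p6) held a promoter entry, 250 bases before to 50 bases after a gene's start, for 49 of the 66 genes. The promoters of 5 genes are shown here, with every CG dinucleotide in capitals, because they stand for the patterns that the results turn on. Syt2 (chr1:134646362-134646661, plus strand) and Syt6 (chr3:103574995-103575294, plus strand) had the largest falls in coverage. Rab37, the third by size, is named only. Rab34 (chr11:78188177-78188476, plus strand) was the gene that gained coverage, and Syt1 (chr10:109010926-109011225, minus strand) and Syt9 (chr7:107370540-107370839, plus strand) were family members with no peak in any library.
Syt2: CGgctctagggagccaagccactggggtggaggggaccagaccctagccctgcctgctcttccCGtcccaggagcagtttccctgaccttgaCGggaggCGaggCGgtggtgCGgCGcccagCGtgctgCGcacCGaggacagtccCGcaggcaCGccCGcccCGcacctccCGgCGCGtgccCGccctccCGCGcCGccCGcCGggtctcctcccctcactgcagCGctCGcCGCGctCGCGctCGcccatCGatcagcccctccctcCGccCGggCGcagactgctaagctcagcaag
Syt6: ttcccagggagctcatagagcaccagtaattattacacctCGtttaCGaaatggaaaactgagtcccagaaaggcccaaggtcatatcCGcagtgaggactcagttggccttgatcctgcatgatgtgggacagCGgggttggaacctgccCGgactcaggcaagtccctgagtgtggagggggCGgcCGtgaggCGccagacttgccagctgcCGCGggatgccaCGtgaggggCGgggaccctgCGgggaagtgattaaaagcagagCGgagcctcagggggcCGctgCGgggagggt
Rab34: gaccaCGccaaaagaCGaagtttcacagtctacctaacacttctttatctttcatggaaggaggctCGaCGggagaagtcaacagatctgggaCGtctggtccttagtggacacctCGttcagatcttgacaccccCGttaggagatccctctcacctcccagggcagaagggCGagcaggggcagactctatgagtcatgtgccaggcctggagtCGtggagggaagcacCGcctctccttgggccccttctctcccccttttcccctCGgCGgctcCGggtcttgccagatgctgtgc
Syt1: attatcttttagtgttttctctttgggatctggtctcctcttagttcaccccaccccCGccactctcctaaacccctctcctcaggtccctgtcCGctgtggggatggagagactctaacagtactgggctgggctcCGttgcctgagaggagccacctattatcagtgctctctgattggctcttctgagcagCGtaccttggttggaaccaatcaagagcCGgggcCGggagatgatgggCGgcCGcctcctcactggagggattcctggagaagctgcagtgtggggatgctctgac
Syt9: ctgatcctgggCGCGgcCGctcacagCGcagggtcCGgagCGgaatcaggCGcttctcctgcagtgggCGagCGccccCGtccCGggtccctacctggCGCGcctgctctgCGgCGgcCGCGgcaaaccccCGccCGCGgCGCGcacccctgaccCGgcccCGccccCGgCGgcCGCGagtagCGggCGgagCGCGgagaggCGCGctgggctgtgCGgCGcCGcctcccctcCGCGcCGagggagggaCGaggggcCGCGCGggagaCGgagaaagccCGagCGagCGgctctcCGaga
CG dinucleotides numbered 34 in Syt2, 16 in Syt6, 13 in Rab34, 8 in Syt1 and 49 in Syt9, so the unmarked Syt1 and Syt9 held both the fewest and the most of the 5. Over the 3 kb on each side of the 5′-most start site, the median CG density was 21.6 per kb for the 30 genes marked in any library and 20.1 per kb for the 36 that were never marked. Over all genes the medians were 21.3 per kb for marked and 16.5 per kb for unmarked genes. In the 300 bases around that start, read on both strands, TGACG (part of the cAMP response element) stood in 24 of the 66 promoters, or 36.4%, against 23.1% of all promoters of that length. CAGCAGG (the core bound by ZIC proteins) stood in 7.6% of the 66 and in 10.1% of all promoters, and TATAAA (the TATA box) in 7.6% and 12.6%. These are matches of letters, described with no test.

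Most of these genes had no H3K27me3 peak near a start site, though a smaller share than over all genes. In none of the 9 libraries was a start-site window covered in 36 of the 66 genes, or 54.5%, against 69.4% of all protein-coding genes. These 36 hold many of the most widely used genes of the synaptic vesicle cycle: Syt1, the calcium sensor of fast release; Syn1, Syn2 and Syn3, the synapsins that tether vesicles in reserve; Syp, Synpr and Sv2a of the vesicle membrane; Vamp2, a SNARE of the vesicle; Cplx1; Rims1, Rims2, Unc13a and Unc13c of the active zone; and Rab3a, the small GTPase of synaptic vesicles. Syt4, Syt5, Syt8, Syt9, Syt11, Cplx4, Synj1, Rab3c, Rab3d, Rab3gap1, Rab3il1 and Rab3ip were unmarked as well, as were 9 of the 12 other Rab genes. Of the 36, 8 carried peaks elsewhere in the gene body in 2 or more libraries. Syn3 had gene-body peaks in all 3 P60 libraries and in no P7 or P14 library, with 989 bp summed over them, and Unc13a had them in 2 P7 libraries (2228 bp) and in no other.

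The other 30 genes were marked in 1 or more libraries, 27 of them in a P7 library. The number of the 66 genes that were marked was 27, 17 and 13 in P7 replicates 1, 2 and 3, then 7, 13 and 14 at P14, and 4, 6 and 10 at P60. As shares these were 40.9%, 25.8% and 19.7% at P7, 10.6%, 19.7% and 21.2% at P14, and 6.1%, 9.1% and 15.2% at P60. The share over all genes in the same libraries was 23.8%, 18.4% and 16.0% at P7, 12.1%, 16.5% and 17.5% at P14, and 8.8%, 7.0% and 11.1% at P60. The gene set lay above all genes in each P7 library, and below them in P14 replicate 1 and P60 replicate 1. P7 replicate 1 stood apart, since 6 genes (Cplx2, Rims3, Syt3, Syt14, Sv2b and Rab3gap2) were marked in that library alone. Of the 27 genes marked in any P7 library, 20 were marked in no P60 library. The share of all genes with this pattern was not counted, and the share marked declined over all genes as well. All 10 genes marked at P60 were marked in P60 replicate 3, and 3 of them in no other P60 library.

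**Figure D1:**
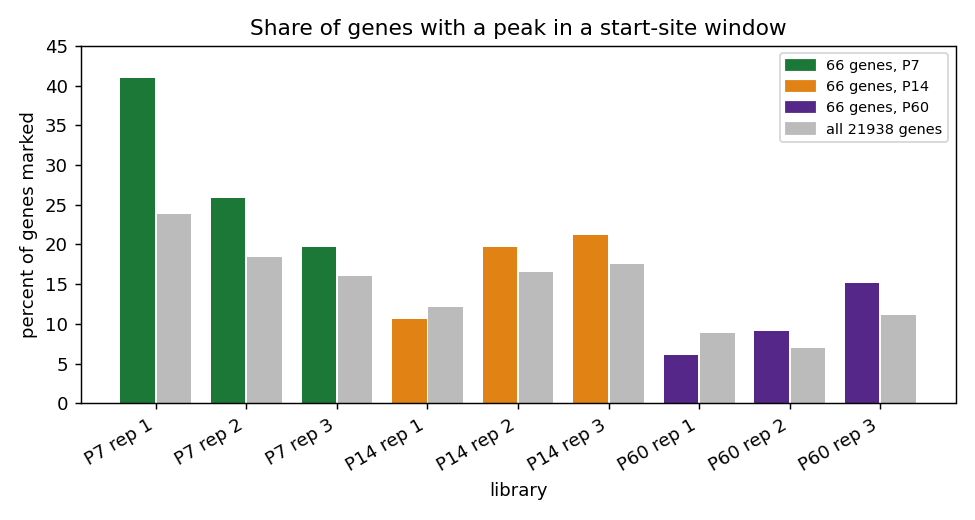
Percent of genes with 1 bp or more of a start-site window under H3K27me3 peaks in each of the 9 libraries, for the 66 synaptic vesicle and release genes (colored by stage) and for all 21938 protein-coding genes (grey). The 66 genes lie between 19.7% and 40.9% in the P7 libraries and between 6.1% and 15.2% in the P60 libraries, and all genes show a decline as well.

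**Figure D2:**
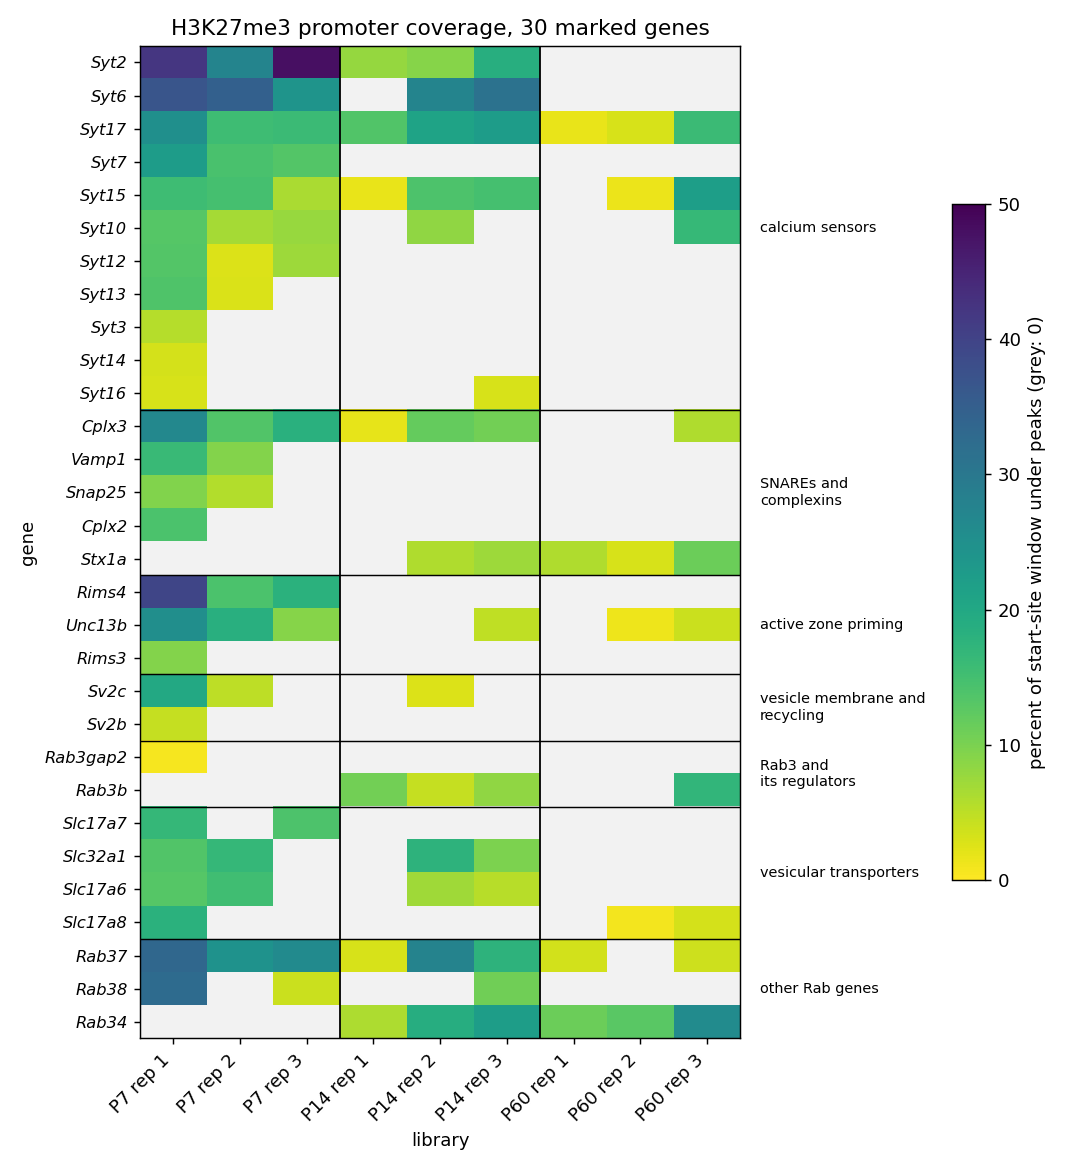
Promoter coverage (color, percent of the window; grey is 0) of the 30 genes marked in any library, as rows grouped by role, in the 9 libraries, as columns in order of stage. Most colored cells lie in the P7 columns; Rab34, Stx1a and Rab3b are at 0 in all 3 P7 columns and have color at P14 and P60.

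Coverage was compared between stages with limma over the 5120 genes marked in 2 or more libraries, with Benjamini-Hochberg adjustment over all of them, and 24 of the 66 genes were among those tested. Syt7, Syt12, Syt13, Rims4, Snap25, Vamp1 and Slc17a7 passed this filter through P7 libraries alone. Rab34, Stx1a and Rab3b passed it through P14 and P60 libraries alone. For these genes the filter fixed the direction of any difference from P7, so the p-value is no support for that direction. For P60 against P7, 8 of the 24 (33.3%) were lower at P60: Syt2, Syt6, Syt7, Syt12, Rims4, Unc13b, Cplx3 and Rab37. Over all genes tested 45.8% were lower, so the share in this gene set was not above the background. Rab34 was the 1 of 24 that was higher at P60, against 0.605% of all genes. Rab34 and Rab37 are among the 12 other Rab genes. Of the 21 tested genes with a role in vesicles or release, 7 were lower and 0 higher, with a median difference of −8.42 points. The median difference, P60 minus P7, was −8.99 points over the 24 and −11.99 points over all genes tested. For P14 against P7, 4 of 24 (16.7%) were lower, Syt2, Syt7, Rims4 and Unc13b, against 11.7% of all genes, and 0 were higher, against 0.352%. For P60 against P14, limma called 0 of 24 in either direction, against 2.07% of all genes lower and 0% higher; at an unadjusted p under 0.05 there were 3, all lower (Rab37, Syt6 and Syt17), against 1306 of the 5120 genes. When each library was scaled to the same mean coverage, 5 of the 24 were lower and 2 higher at P60 than at P7 (1111 and 280 over all genes), against 8 and 1 unscaled (2347 and 31 over all genes). Leaving out P60 replicates 1 and 2, an alternative chosen after seeing the data, left 1 P60 library. P60 minus P7 was then −39.2 points for Syt2, −13.4 points for Cplx3 and 25.9 points for Rab34. The calls were lost in this setting. With 1 library at P60 and no count over all genes, that loss cannot be read as a result about these genes.

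**Figure D3:**
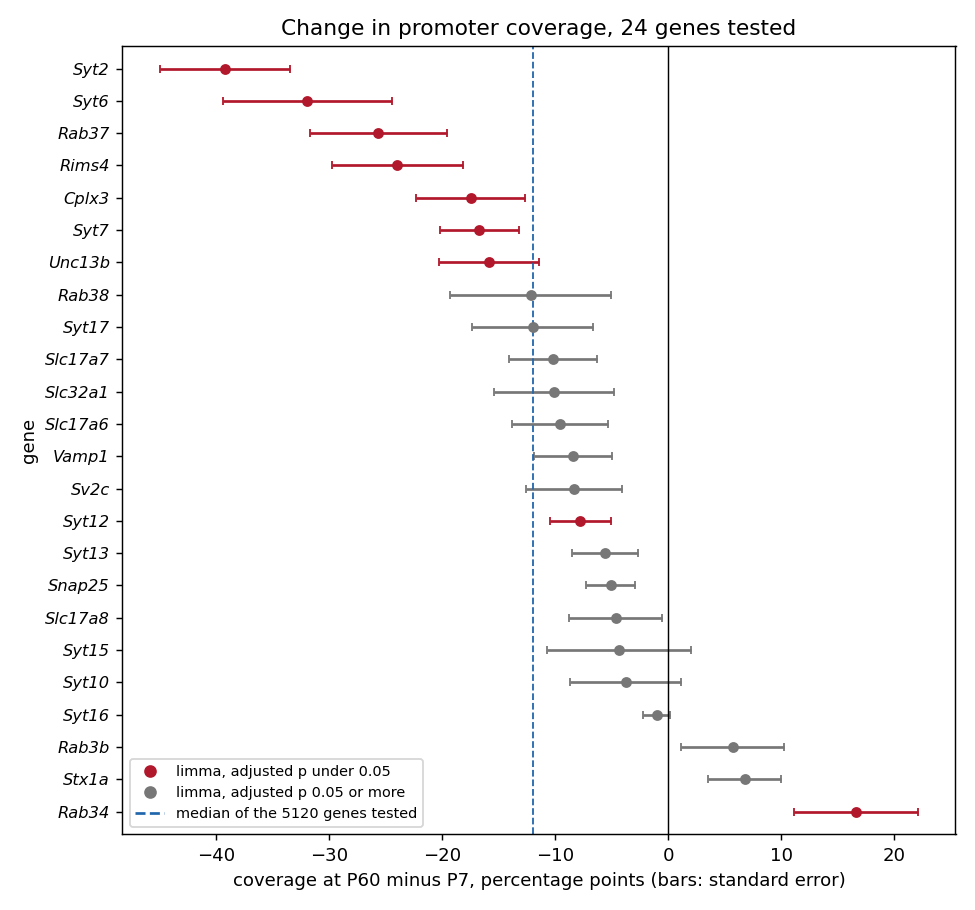
Difference in promoter coverage, P60 minus P7, in percentage points with the standard error from limma, for the 24 genes tested (rows). Red points passed the threshold, and the dashed line is the median of all 5120 genes tested (−11.99 points); Syt2 lies farthest below 0 and Rab34 farthest above.

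The synaptotagmins sense calcium or act in membrane traffic, and they held 17 of the 66 genes, among them the 2 with the highest mean coverage at P7, Syt2 (39.2% ± 10.5, SD, n = 3) and Syt6 (31.9% ± 6.74). Of these 17, 6 were never marked, 9 were tested, and 4 were lower at P60 than at P7. Syt2 (chr1:134646677-134762593 in GRCm38, plus strand), a fast calcium sensor found at inhibitory terminals of the cerebellum and brainstem, had 42.0%, 27.5% and 47.9% coverage in P7 replicates 1, 2 and 3, then 7.97%, 9.10% and 18.7% at P14, and 0% in all 3 P60 libraries. The 3 stages did not overlap. The difference was −39.2 points for P60 minus P7 (SE 5.76, limma adjusted p = 0.000872) and −27.2 points for P14 minus P7 (adjusted p = 0.0140). Its P7 peaks reached a −log10 q of 10.0, 6.61 and 4.26 and ranked among the strongest 4.7%, 5.7% and 16.0% of their lists. At P7 they spread over both sides of the start site, with 51.8% of the covered bases downstream, and at P14 92.0% lay downstream and 78.1% in an intron. Without P14 replicate 2 the difference between P14 and P7 had a limma adjusted p of 0.0655. With libraries scaled to 1 mean it was −12.4 points on that scale with an adjusted p of 0.224. The difference between P60 and P7 passed under each of 18 alternative settings. These do not include the fit with 1 P60 library, in which the call was lost.

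Syt6 (chr3:103575231-103645569, plus strand), a synaptotagmin known from the acrosome reaction of sperm, also fell. Its coverage was 36.8%, 34.7% and 24.2% at P7, 0%, 27.4% and 31.2% at P14, and 0% in each P60 library. P14 replicates 2 and 3 lay within the range of P7, P14 replicate 1 was at 0, and all P60 libraries lay below all P7 libraries. P60 minus P7 was −31.9 points (SE 7.47, limma adjusted p = 0.00579). For P60 against P14 the adjusted p was 0.135 with all libraries and 0.00558 without P14 replicate 1.

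Syt7 (chr19:10389090-10453180, plus strand), the slow, high-affinity calcium sensor of asynchronous release, had 22.5%, 14.3% and 13.3% coverage at P7 and 0% in all 6 later libraries. P14 minus P7 and P60 minus P7 were both −16.7 points (SE 3.50), with limma adjusted p-values of 0.0132 and 0.00335. Syt7 passed the filter through its P7 libraries alone, which fixed the direction of both differences. All of its covered bases at P7 lay downstream of the start site, between 363 and 1710 bp, and 98.0% of them in an intron. The difference between P60 and P7 passed under the same 18 settings, and was also lost in the fit with 1 P60 library. The difference between P14 and P7 did not pass without P14 replicate 2 (limma adjusted p = 0.0654). Syt12 (chr19:4445908-4477447, minus strand), which lacks calcium binding, showed the same order at a lower level, with 13.3%, 2.60% and 7.37% at P7 and 0% in the 6 later libraries. P60 minus P7 was −7.77 points (SE 2.68, limma adjusted p = 0.0343). This call was lost without P14 replicate 2 or 3 (adjusted p = 0.0582 and 0.0527) and without P60 replicate 1, 2 or 3 (0.0939, 0.0965 and 0.0774), and once peaks with a −log10 q under 2 were removed (0.161), with lists of equal size (0.157), with a looser filter on low values (0.0694) and without trend and robust variance (0.0512).

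Syt10, Syt15 and Syt17 were marked in 1 or more P60 libraries. Syt17, also known as the B/K protein, was the only one of the 66 genes marked in all 9 libraries, against 2.83% of all genes, with 25.2%, 15.6% and 15.9% at P7, 13.6%, 21.1% and 22.3% at P14, and 1.63%, 3.08% and 15.9% at P60. P60 replicates 1 and 2, the libraries of narrow peaks, lay below all others, and P60 replicate 3 lay within the range of P7. P60 minus P7 was −12.0 points (SE 5.36, limma adjusted p = 0.0843; 0.0261 without P60 replicate 3). Syt15 was marked in 8 libraries, with 15.6%, 14.7% and 6.33% at P7, 1.65%, 13.9% and 14.8% at P14, and 0%, 1.47% and 22.0% at P60; its highest value was in P60 replicate 3 and the stages overlapped. Syt10 had 13.2%, 6.68% and 7.80% at P7, 8.27% in P14 replicate 2, 16.5% in P60 replicate 3 and 0% in the other 4 libraries. Syt13 and Syt16 stayed under 14% in every library and did not pass the test.

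**Figure D4:**
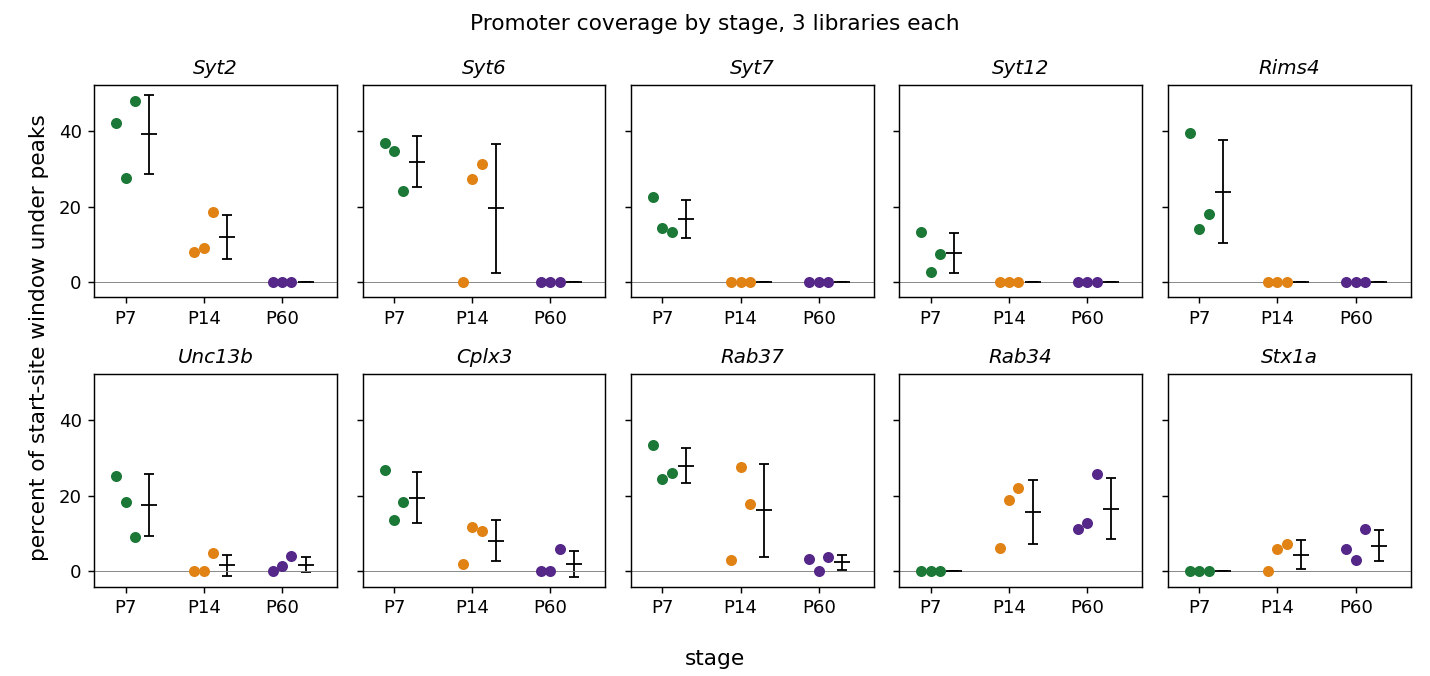
Promoter coverage (percent of the window under peaks) in each library at P7, P14 and P60 for 10 genes: the 9 that passed limma between P60 and P7, and Stx1a. Dots are libraries, and dashes with bars are the mean and SD of 3 libraries; the first 8 genes are highest at P7, and Rab34 and Stx1a are at 0 in all 3 P7 libraries.

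RIM and Unc13 proteins prime vesicles at the active zone, and 2 of the 7 genes in this group were tested and fell. Rims4 (chr2:163859751-163918683, minus strand), a short RIM isoform gene, had 39.6%, 14.1% and 18.1% coverage at P7 and 0% in all 6 later libraries. P14 minus P7 and P60 minus P7 were both −23.9 points (SE 5.79, limma adjusted p = 0.0238 and 0.00667). P7 replicate 1 was higher than the other P7 libraries, and each of the 3 was above all later ones. Leaving out P14 replicate 1, 2 or 3 gave adjusted p-values of 0.0717, 0.0838 and 0.0554 for P14 against P7. Its P7 peaks had a −log10 q of 1.80 to 3.51 and lay within the strongest 29.8% of the list in P7 replicate 1, 63.6% in replicate 2, and 54.1% and 62.8% in replicate 3. Once peaks with a −log10 q under 2 were removed the adjusted p for P60 against P7 was 0.142, and with lists of equal size 0.0731. Rims4 also carried peaks farther into the gene body in all 3 P7 libraries (2577 bp summed) and in no later library.

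Unc13b (chr4:43058953-43264871, plus strand), a Munc13 protein of vesicle priming, had 25.3%, 18.5% and 9.03% at P7, 0%, 0% and 4.82% at P14, and 0%, 1.32% and 3.98% at P60. Each P7 library lay above the 6 later ones. P60 minus P7 was −15.8 points (SE 4.44, limma adjusted p = 0.0137) and P14 minus P7 was −16.0 points (adjusted p = 0.0394). Every covered base lay downstream of the 5′-most start site, 93.1% in an intron at P7, and 8 of the 14 annotated start sites of Unc13b had no peak in their windows. Without P60 replicate 1 or 2 the adjusted p for P60 against P7 was 0.0578 and 0.0508, and with libraries scaled to 1 mean the difference was −4.75 points on that scale (adjusted p = 0.278). The call for P14 against P7 was lost without any of 8 of the 9 libraries (adjusted p 0.0526 to 0.134), P7 replicate 3 being the exception.

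Of the 9 genes of SNAREs and complexins, 4 were never marked, 4 were tested and 1 fell. Cplx3 (chr9:57599992-57606281, minus strand), a complexin known from retinal ribbon synapses, had 26.7%, 13.5% and 18.3% at P7, 1.87%, 11.8% and 10.6% at P14, and 0%, 0% and 6.05% at P60. All P7 libraries lay above all later ones, and P14 and P60 overlapped. P60 minus P7 was −17.5 points (SE 4.81, limma adjusted p = 0.0124), but without P60 replicate 1 or 2 the adjusted p was 0.0542 and 0.0551. With libraries scaled to 1 mean it was −7.99 points on that scale (adjusted p = 0.136), and once peaks with a −log10 q under 4 were removed the adjusted p was 0.139. Snap25 had 9.57% and 5.68% and Vamp1 16.0% and 9.23% in P7 replicates 1 and 2, and both were at 0 in the other 7 libraries; they missed the threshold for P60 against P7 (adjusted p = 0.0711 and 0.0658).

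Stx1a (chr5:135023482-135051100, plus strand), a SNARE of the presynaptic membrane, ran the other way. It was at 0% in all 3 P7 libraries, at 0%, 5.97% and 7.28% at P14, and at 5.97%, 3.10% and 11.2% at P60. All P60 libraries lay above all P7 libraries, but P60 minus P7 was 6.77 points (SE 3.23) with a limma adjusted p of 0.102, and its peaks had a −log10 q of 1.17 to 2.39. When libraries were scaled to 1 mean the adjusted p was 0.00661. All covered bases lay in an intron downstream of the 5′-most start site.

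**Figure D5:**
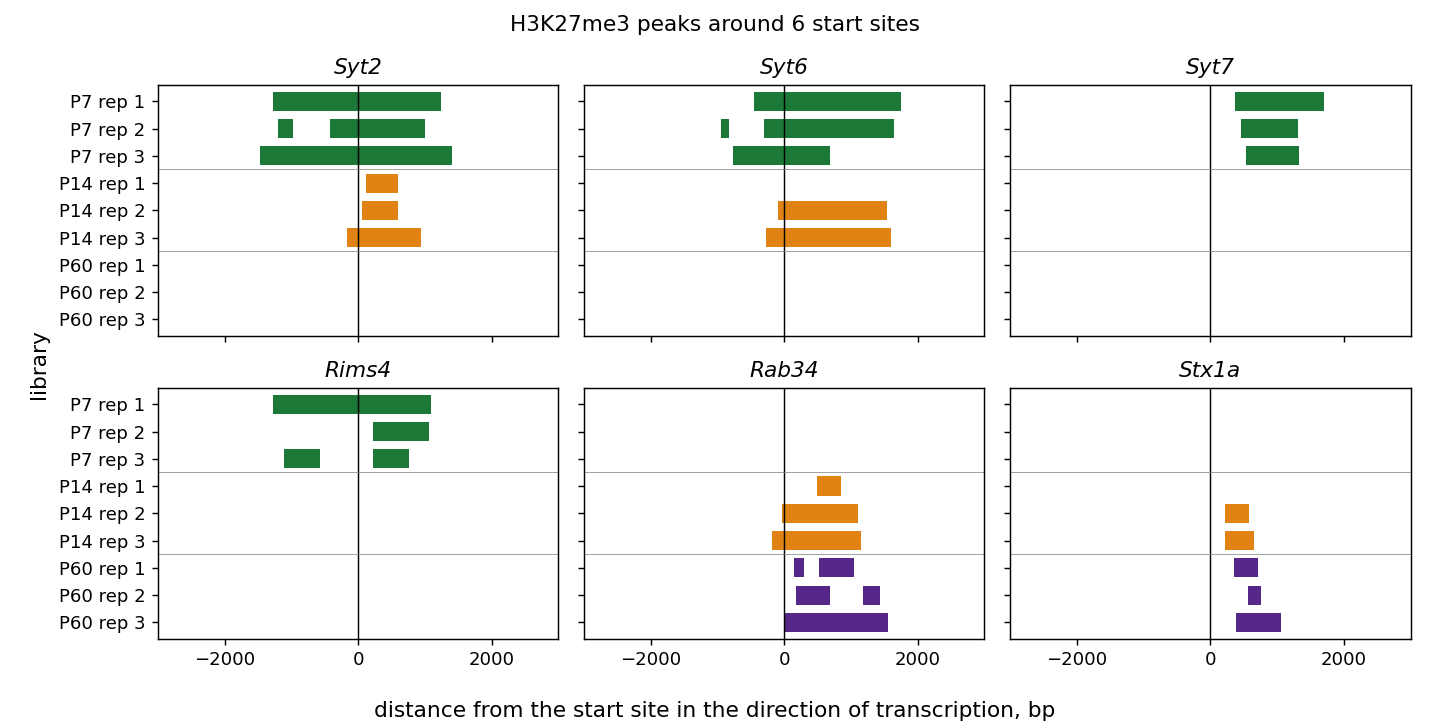
Positions of H3K27me3 peaks around the start site (0 on the horizontal axis, bp in the direction of transcription) of 6 genes, with 1 line per library in order of stage from top to bottom. Syt2, Syt6, Syt7 and Rims4 have peaks at P7 and none at P60, and Rab34 and Stx1a have peaks at P60 and none at P7, almost all of them downstream of the start.

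All 4 vesicular transporter genes were marked in some library and were tested, and limma called 0 of them between P60 and P7. Slc17a7 (VGLUT1), the glutamate transporter of mature granule neurons, had 16.6%, 0% and 13.9% at P7 and 0% in the 6 later libraries. Its most covered start site lies 5001 bp inside the gene. The 5′-most start site was marked in 1 library, too few for Slc17a7 to be tested there. P60 minus P7 was −10.2 points (SE 3.91, limma adjusted p = 0.0517; 0.00403 without P7 replicate 2, where it had no peak in the window). Farther into the gene body it had 4189 bp of peaks summed over the P7 libraries, all 3 of which had peaks there. It had 179 bp there in 1 P14 library and 0 bp in the P60 libraries. Slc17a6 (VGLUT2), the glutamate transporter of climbing fibers and young granule neurons, had 13.3%, 15.4% and 0% at P7, 0%, 7.15% and 5.37% at P14, and 0% at P60. Its adjusted p for P60 against P7 was 0.0818, and 0.00628 without P7 replicate 3. The most covered start site of Slc17a6 lies 3142 bp inside the gene. With the 5′-most one, marked in 2 libraries, P60 minus P7 was −2.93 points (limma adjusted p = 0.0985), against −9.56 points.

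Slc32a1 (VGAT), the transporter of GABA and glycine, had 13.5%, 16.7% and 0% at P7, 0%, 17.6% and 9.83% at P14, and 0% in all P60 libraries. P7 and P14 overlapped, and P60 minus P7 was −10.1 points (SE 5.34, limma adjusted p = 0.136; 0.0314 without P7 replicate 3). Slc17a8 (VGLUT3) was marked in P7 replicate 1 (18.1%) and at 0.95% and 3.23% in P60 replicates 2 and 3, with 0% in the others. Its stages overlapped and its adjusted p was 0.365.

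Of the 9 genes in the vesicle membrane group, Sv2b and Sv2c were the 2 that were marked in any library. Sv2c had 19.9% and 5.0% in P7 replicates 1 and 2, 2.57% in P14 replicate 2 and 0% elsewhere (adjusted p = 0.126 for P60 against P7), and Sv2b was marked in P7 replicate 1 alone. Among Rab3 and its regulators, Rab3b was marked in no P7 library and in all 3 P14 libraries, a pattern it shared with Rab34 in the set and with 0.301% of all genes. Its coverage was 0% at P7, 10.6%, 4.48% and 8.35% at P14, and 0%, 0% and 17.1% at P60, and no comparison passed the test (adjusted p = 0.253 for P14 against P7).

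The largest changes among the 12 other Rab genes were in Rab37 and Rab34, which encode Rab proteins of secretory granules and of the Golgi and cilium. Rab37 (chr11:115091431-115162236, plus strand) had 33.4%, 24.5% and 26.1% at P7, 3.08%, 27.7% and 17.7% at P14, and 3.35%, 0% and 3.82% at P60. All P60 libraries lay below all P7 libraries, and P60 minus P7 was −25.6 points (SE 6.06, limma adjusted p = 0.00612). With libraries scaled to 1 mean the difference was −8.05 points on that scale and the adjusted p 0.351. Summed over the libraries, the most covered start site lies 62726 bp inside the gene, downstream of the 5′-most one. The start site was chosen in each library, so these values mix start sites: that window held no peak in P14 replicate 1. With the 5′-most start site alone, marked in 6 libraries, P60 minus P7 was −23.3 points (limma adjusted p = 0.0055).

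Rab34 (chr11:78188430-78192193, plus strand) was at 0% in all P7 libraries, at 6.13%, 18.8% and 22.1% at P14, and at 11.2%, 12.8% and 25.9% at P60. Every later library lay above every P7 library, and P60 minus P7 was 16.6 points (SE 5.45, limma adjusted p = 0.0272). The call was lost without P7 replicate 1, 2 or 3 (adjusted p = 0.0628, 0.0622 and 0.0530) and without P60 replicate 3 (0.0896), and once peaks with a −log10 q under 2 were removed (0.349) or with lists of equal size (0.131). For P14 against P7 the adjusted p was 0.0862, and 0.0463 without P14 replicate 1. At P60 all covered bases lay downstream of the start, 44.2% of them in coding exons. Rab38 had 32.5%, 0% and 3.93% at P7, 10.9% in P14 replicate 3 and 0% in the other 5 libraries, and did not pass (adjusted p = 0.175).

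Counted without a test, 5 of the 66 genes were marked in all 3 P7 libraries and in no P60 library: Syt2, Syt6, Syt7, Syt12 and Rims4. This is 7.58%, against 5.77% of all genes. Without P7 replicate 3 the count was 11, with Syt13, Snap25, Vamp1, Sv2c, Slc17a6 and Slc32a1 added. That alternative was not counted over all genes, so the 5.77% is no background for it. In the opposite direction, Rab34 and Stx1a were marked in all 3 P60 libraries and in no P7 library, which is 3.03% of the 66, against 0.31% of all genes. Rab34 is among the other Rab genes taken in by letters, and Stx1a did not pass limma for P60 against P7 (adjusted p = 0.102).

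A list of other presynaptic genes outside the set gave a view of the rest of the terminal. Of 54 such genes found, 27 were never marked, against 69.4% of all genes, and 22 were tested. At P60, 13 of the 22 were lower than at P7, against 45.8% of all genes tested, and limma called 0 higher. The median difference was −15.96 points, against −11.99 points over all genes tested. They included Doc2b, a calcium sensor of spontaneous release, Syngr3, a vesicle protein, the monoamine and acetylcholine transporters Slc18a2 and Slc18a3, the dynamins Dnm1 and Dnm3, Rimbp2 of the active zone, and Cacna1a, the pore of the P/Q-type calcium channel. At P14, 7 of the 22 were lower than at P7, against 11.7% of all genes tested. The scaffold gene Pclo was among those with no peak in a start-site window in any library.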

How the data were processed

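H3K27me3 ChIP-seq peaks of 9 cerebellum libraries (P7, P14 and P60, 3 each) were analysed. Per the labels and the submitters' processing notes, single-end reads were trimmed (Trimmomatic 0.38) and aligned (STAR 2.7.2b), and the authors called broad peaks with MACS2 2.1, 1 list per library. Each deposited list gives a score, the fold enrichment (a ratio), −log10 p and −log10 q; they are relative to the same library and served here only to select or rank peaks. The lowest −log10 q was near 1.00 in each list, weaker than the named false discovery rate of 0.01. Without read counts, the authors' DESeq2 comparison was not repeated and no counting interval was computed. The 5 Kdm6b lists were left out: their last X chromosome peaks end at 169326640 to 169326711, against 170881279 to 170881401 in the age lists, and their base-pair Jaccard index with the P14 lists was 0.0066 to 0.0148, against 0.0872 to 0.4307 for the age lists, so their positions do not appear to follow GRCm38 and the planned Kdm6b-cKO against Kdm6b-WT test was not run.

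Genes and start sites came from GENCODE vM21 (GRCm38). Coverage was fitted with limma 3.58.1 in R 4.3.3 (trend and robust variance, 1 fit over the 9 libraries, genes with coverage in 2 or more libraries), and calls were made at an adjusted p (Benjamini-Hochberg) below 0.05. P-values measure the spread between these libraries, pooled over the 3 stages. Libraries that are all at 0 within a stage add no spread. For Syt7, Rims4 and Syt12, at 0 throughout P14 and P60, the pooled standard error therefore understates the spread at P7. The step was run on simulated data built from the P7 means and spreads. Changes were placed in highly covered genes only, so that run does not bear on calls at low coverage. Alternatives were other start sites, windows, peak thresholds, equal list sizes, scaling, filter, variance model, a replicate block and leaving out each library. Values per library are given for genes that passed limma, the 10 highest at P7, those marked in 7 or more libraries and the 4 transporters; Stx1a, Rab3b and others were added after their values were seen. Members and gene lists were chosen with earlier results of these data known. Promoter sequences are from RefSeq (GRCm38.p6). Figures were drawn with matplotlib 3.10.9. Some genes that enter the counts are not reported here by name.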

Additional observations from a re-analysis of the deposited data

How the results depend on the processing

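For P14 against P7, the count of genes lower at P14 was 4 as reported, 2 after scaling each library to 1 mean, and 0 to 6 when each library was left out in turn (0 without P14 replicate 2, 2 without P14 replicate 1 or 3). For P60 against P14 it was 0 as reported, 1 with peaks of −log10 q of 2 or more (Syt17) and 0 to 2 when each library was left out (Syt6 and Rab37 without P14 replicate 1). For P60 against P7 it was 8 as reported, 3 with peaks of −log10 q of 4 or more, where 6 of the 66 genes could be tested, 5 after scaling, and 5 to 14 when each library was left out (5 without P60 replicate 1 or 2, 14 without P7 replicate 3). Without P60 replicates 1 and 2, chosen after seeing the data, 1 P60 library was left and the calls against P7 were lost, with no count over all genes beside them. The count of genes marked in all P7 and no P60 libraries was 5, and 5 to 11 when each library was left out, with no count over all genes beside it. With the replicate block the counts were 3, 0 and 7, the calls lost being Unc13b (P14 against P7) and Syt12 (P60 against P7). Samples share only a number: deviations of same-numbered libraries from their stage means correlated between −0.216 and 0.249. Differences of P60 minus P7 changed sign for Slc17a8 (1.39 with equal list sizes, 1.47 scaled, −7.65 to 1.39 when each library was left out, 1.39 being without P7 replicate 1), Syt15 (9.30 scaled, 9.82 without P60 replicates 1 and 2) and Syt17 (8.70 scaled), none of them past the threshold; the cause was not tested. Of 320 values of 18 named genes under these alternatives, 273 kept direction and side of the threshold, 35 lost the call, 6 gained it and 6 changed sign. Settings in which a gene could not be tested are not among the 320. With peaks of −log10 q of 4 or more, these were missing for Syt6, Syt12, Rims4, Unc13b and Rab34, among others. The Kdm6b-cKO comparison and its alternatives were not run. Low coverage at P60 is limited by narrow peaks and unknown depth.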
